A study of Mus musculus with 4 samples.

Results

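The genes described here are 44 nucleolar ribosome biogenesis factors of the mouse, among 50600 annotated genes. They were chosen by name: each row of the deposited tables whose gene identifier, without its version, maps to 1 of the listed symbols is a member, and all 44 symbols matched 1 row each. The rule itself uses no measured value, but the list was drawn up with earlier results of these data known. RNA of primary T cells from mice of the inbred strain C57BL/6NJ was sequenced in 4 libraries, numbered by the labels as biological replicates 1 to 4 of the same group. Age is recorded as unknown and sex as not collected. The labels call the assay total RNA-seq but link a poly(A)+ library protocol, beside another for differentiating CD4+ T cells. Alignment names in the count files carry the words Th0 and activated and a time of 24 h for all 4 libraries, so any stimulation they describe was shared and no unstimulated cells stand beside them. Nothing states that the libraries came from separate animals, so the p-values below reflect the spread of these 4 samples alone, which may be technical.

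Ribosomes are assembled in the nucleolus around the ribosomal RNA precursor that RNA polymerase I transcribes. Small nucleolar RNAs (snoRNAs) in complexes with proteins guide the chemical modification of that precursor and take part in its cutting, the small subunit processome folds and trims the part that becomes 18S rRNA, and separate factors mature the large subunit. Resting T cells have small nucleoli and few ribosomes, and ribosome production is known to expand when they are activated and grow.

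Levels are given as TPM (transcript abundance scaled to gene length and to the library), computed from the deposited counts and the exon length listed for each gene, as mean ± SD over the 4 libraries (SD, n = 4). Values listed for the libraries always run from replicate 1 to replicate 4. Gene-assigned fragments summed to between 47558517 and 60102919 in replicates 1, 3 and 4 and to 273136467 in replicate 2. Members took 1.74%, 1.72%, 1.64% and 1.66% of these fragments. The least covered value was that of Ddx10 in replicate 3, with 4121 fragments, so counting error was small for every member. Detection starts far below their levels: for 1 kb of exons, 3 fragments amount to 0.0379 to 0.214 TPM, a floor that covers counting error only. T-cell markers were present as labelled, 10 of 10 reaching 10 TPM in every library, with a summed level of 5956 to 6333 TPM. By contrast, 0 of 6 B-cell markers, 0 of 6 myeloid markers, 0 of 3 natural killer markers, 0 of 4 red cell and platelet markers and 0 of 5 markers of stroma, endothelium and epithelium reached 10 TPM in all libraries. Their summed levels ran from 3.37 to 7.17, 5.74 to 8.92, 0 to 0.172, 0 to 0.501 and 1.17 to 1.79 TPM. Csf1r, Klrb1c, Hbb-bs, Hba-a1, Pf4, Col1a2, Cdh5 and Krt8 had no fragment. Fragments that aligned to several places or covered several genes were not counted. Of their exon bases, Itgam shares 68.7% and Klrb1c 13.9% with another gene on the strand. In such bulk samples fewer cells that transcribe a gene and less RNA of it per cell cannot be told apart.

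Several members carry the genes of snoRNAs inside their own span, and 3 of these hosts, Nop56, Nop58 and Dkc1, themselves encode core proteins of snoRNA complexes. In the GENCODE vM21 annotation 7 of the 44 members (15.9%) held at least 1 snoRNA gene on their strand, against 1.73% of 11112 protein-coding genes tested. The hosts are Ncl with 3 such genes, Nop56 with 5, Nop58 with 4, Dkc1 with 1, Wdr43 with 3, Tsr1 with 2 and Gnl3 with 3. Box C/D snoRNAs guide 2′-O-methylation, and the proteins of Fbl, Nop56 and Nop58 are among those that hold them. Of the 21 snoRNA genes, 9 hold the exact letters TGATGA of box C near the start and CTGA of box D near the end. In 2 others the ACA of the H/ACA class stands 3 bases before the end. The other 10 hold neither arrangement in exact form at these places, though the letters may occur elsewhere in them. To show the arrangement, 1 snoRNA with exact boxes is given for each of 5 hosts, 5′ to 3′ in DNA letters from the GENCODE vM21 transcripts on mm10, with box C and box D in capitals.
Snord110 in Nop56, chr2:130275506-130275573, plus strand: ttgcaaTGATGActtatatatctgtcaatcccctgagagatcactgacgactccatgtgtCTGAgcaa
Snord11 in Nop58, chr1:59704790-59704873, plus strand: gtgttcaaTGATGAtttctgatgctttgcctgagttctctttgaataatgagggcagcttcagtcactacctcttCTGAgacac
Snord82 in Ncl, chr1:86356261-86356330, minus strand: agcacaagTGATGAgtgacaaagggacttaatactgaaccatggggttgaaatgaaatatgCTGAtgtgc
Snord92 in Wdr43, chr17:71631281-71631365, plus strand: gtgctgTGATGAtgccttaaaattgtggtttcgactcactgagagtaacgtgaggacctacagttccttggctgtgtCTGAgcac
Snord69 in Gnl3, chr14:31014287-31014366, minus strand: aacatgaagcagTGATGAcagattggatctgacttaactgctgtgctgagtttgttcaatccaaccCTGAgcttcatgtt

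These snoRNAs themselves had few fragments beside their hosts, in counts that are not scaled to length. Snord69 had the most fragments of the 21, with 171, 593, 110 and 82 in the 4 libraries. Its host Gnl3 had 14314, 63506, 10442 and 10589. Snord69 has 80 bases and Gnl3 has 1883 exon bases, so the gap per base is smaller than that in fragments. Snord82 had 0, 3, 1 and 1 fragments beside 236362, 1015015, 170875 and 169672 for its host Ncl. The levels described below are those counted over the exons of the host genes, and no level of the snoRNAs they carry is read from these libraries. Nop56 is the host whose count the arrangement touches most: 8.0% of its annotated exon bases are shared on the strand with other genes, 4 of them snoRNA genes, and fragments over several genes were not counted. Shares were 2.12% for Ncl, 0.781% for Nop58 and 0 for every other member.

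Promoters of the members were read from a RefSeq table on GRCm38.p6 that spans 250 bases before to 50 after a gene's start. It matched 38 of the 44 members. Not matched were Rrs1, Rrp12, Bop1, Gnl2, Npm1 and Fbl. The letters CACGTG, the palindromic E-box that MYC and other basic helix-loop-helix factors can bind, were searched on both strands because ribosome biogenesis genes are textbook targets of that family. They were in 10 of 38 members (26.3%), against 8.09% of all 27025 genes with a promoter in the table and 12.2% of 8859 protein-coding genes tested. Letters of an ETS-type site, CCGGAAG, were in 13 of 38 (34.2%), against 9.93% and 22.0%. CCAAT was in 17 of 38 (44.7%), against 41.1% and 43.6%. By their letters, different ones of these motifs cannot share a base. The 5 members Nop2, Utp4, Ltv1, Tsr1 and Utp18 hold both CACGTG and CCGGAAG. A match is a description of the letters and shows no binding. For 6 members whose levels are described below, windows of 30 bases are given on GRCm38.p6 in the direction of the gene, with CACGTG in capitals and the position of its first base counted from the start (+1).
Imp4 at -121, chr1:34439696-34439725, plus strand: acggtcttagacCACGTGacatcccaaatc
Nop2 at -60, chr6:125131811-125131840, plus strand: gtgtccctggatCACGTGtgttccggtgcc
Utp18 at -20, chr11:93885769-93885798, minus strand: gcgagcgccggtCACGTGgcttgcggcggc
Pes1 at 3, chr11:3963965-3963994, plus strand: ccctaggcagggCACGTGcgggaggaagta
Wdr43 at 18, chr17:71616220-71616249, plus strand: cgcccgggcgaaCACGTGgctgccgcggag
Tsr1 at 25, chr11:74898092-74898121, plus strand: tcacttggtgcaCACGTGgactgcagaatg

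Sites lay before the start in 3 of the 10 members and between positions 3 and 38 after it in the other 7. Levels of members with and without CACGTG overlapped. The median with it was 264.6 TPM (n = 10 genes, from 84.1 for Imp4 to 470.4 for Nop2), beside 232 TPM for the 28 members whose promoter lacks it. On coding length the order of these medians turned, 153 against 198 TPM.

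RNA of all 44 members was present in every library, for most of them at high levels. Each was at 10 TPM or more in all 4, as were 63.8% of the 12712 genes that passed a filter on low counts, and 41 were at 100 TPM or more in all 4, as were 15.8%. All 44 members passed the filter. With lengths shortened for an assumed fragment of 200 bases, which also lowers the median of genes tested to 11.4 TPM, 24 members and 7.45% of genes tested were at 100 TPM or more. Their median level was 244.7 TPM, against 23.0 TPM over all genes tested. From the lowest member, Wdr12 at 38.4 ± 0.806 TPM, to the highest, Npm1 at 2791 ± 190 TPM, levels per exon length spanned 72.7-fold, and the middle of the list, from lower to upper quartile, ran from 148 to 345 TPM. Below 100 TPM in at least 1 library were Wdr12, Imp4 and Ddx10, described below. Ranked by mean level, 33 of the 43 neighbouring pairs had overlapping values, so most neighbours in the order per exon length do not differ beyond their spread.

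**Figure D1:**
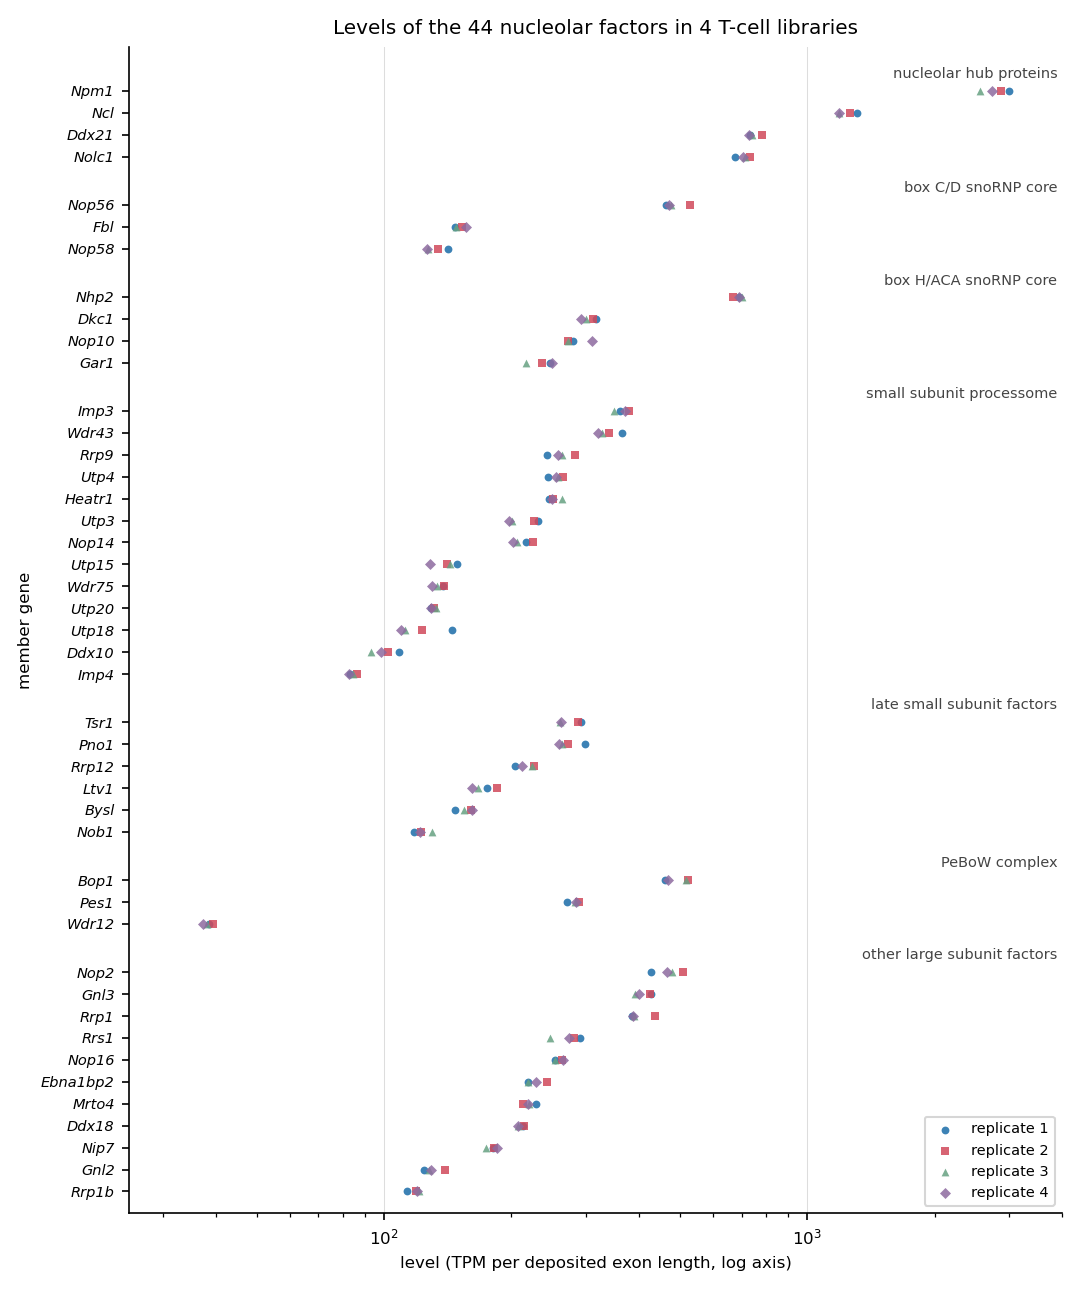
Level of each of the 44 members (TPM per deposited exon length, log axis) in the 4 libraries, 1 marker per library, grouped by role and ordered by mean within a role. Markers of a gene nearly coincide beside the 72.7-fold span between genes, with Npm1 and Ncl above 1000 TPM and Wdr12 alone below 50 TPM.

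Comparisons between members depend on the length that turns counts into levels, which is described here before the single genes. The deposited length is the number of bases in all annotated exons of a gene together, which for some members is much longer than the annotated principal messenger RNA. Nop58 has 10758 exon bases, against 1713 in its principal transcript in GENCODE vM21 and 1335 coding bases. Wdr12 has 11955 against 10012 and 1272, Ncl 10188 against 8202 and 2124, Imp4 8553 against 5836 and 876, and Fbl 4209 against 1197 and 984. The counts do not tell which transcripts the fragments came from. Levels were therefore computed on 2 more scales, per principal transcript length and per coding length. The median change of a gene, over all genes tested, was -0.26 and -0.25 on the log2 scale. Beyond that shift, 6 members moved by more than 1.5-fold with transcript length and 23 with coding length. Over the 44 members, Spearman's rho of the levels with those per exon length was 0.80 for transcript length and 0.63 for coding length, all from the same counts. The number at 100 TPM or more in all libraries was 40 and 33 on these scales, and the median of the members was 199 and 180 TPM, beside 22.5 and 22.1 TPM over all genes tested.

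The hub proteins of the nucleolus were the 4 highest members per exon length. On the other scales Ddx21 ranked 5 per transcript and 5 per coding length, and Nolc1 ranked 7 and 6. Npm1 encodes nucleophosmin, a scaffold of the outer, granular part of the nucleolus and a chaperone of assembling ribosomes (ENSMUSG00000057113.13, chromosome 11, 33152287 to 33163206, minus strand). It stood at 3001, 2874, 2561 and 2728 TPM, lowest in replicate 3. Ncl encodes nucleolin, an RNA-binding protein of rRNA transcription and early processing (ENSMUSG00000026234.12, chromosome 1, 86344719 to 86359400, minus strand). It stood at 1308, 1259, 1187 and 1187 TPM, so that every library had less of it than of Npm1. The difference between Npm1 and Ncl was 1.17 ± 0.04 on the log2(TPM + 1) scale (exact sign-flip permutation p = 0.125, the smallest that 4 libraries allow). It was 1.57 per transcript length and 0.51 per coding length, in 4 of 4 libraries each, and the pair ranked first and second of the 44 members on all 3 scales. Without length scaling Ncl had more fragments than Npm1 in every library.

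Ddx21, an RNA helicase that links rRNA transcription with processing, stood at 734, 781, 740 and 727 TPM. Nolc1, a chaperone of snoRNA complexes known as Nopp140, stood at 674, 734, 714 and 707 TPM. The ranges of Ddx21 and Nolc1 met, but Ddx21 was the higher in each library, and both lay below every library's Ncl. Per coding length the distance from Ncl to Nolc1 grew from 1.75-fold to 4.86-fold.

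The 3 listed core proteins of box C/D snoRNA complexes stood at unlike levels per exon length and closer together on the other length scales. Nop56 (ENSMUSG00000027405.16, chromosome 2, 130274430 to 130279313, plus strand), a scaffold of the complex, stood at 465, 528, 478 and 472 TPM, highest in replicate 2. Fbl encodes fibrillarin, the methyltransferase (ENSMUSG00000046865.7, chromosome 7, 28169710 to 28179269, plus strand), and stood at 147, 153, 148 and 156 TPM. Nop58, the other scaffold (ENSMUSG00000026020.9, chromosome 1, 59684971 to 59719044, plus strand), stood at 141, 134, 127 and 126 TPM. Fbl was above Nop58 in 4 of 4 libraries, by 0.19 ± 0.10 on the log2(TPM + 1) scale, and their ranges did not overlap. With transcript length the order turned: Nop58 stood at 574 ± 31.1 TPM and Fbl at 367 ± 9.82, with Fbl lower by -0.64 on the log2 scale in 4 of 4 libraries. Coding length gave 353 ± 17.4 for Nop58 and 214 ± 6.28 for Fbl. Nop56 remained the highest of the 3 on every scale in its mean, at 734 ± 43.0 TPM per transcript and 379 ± 23.1 per coding length, and the span from highest to lowest narrowed from 3.67-fold to 2.00-fold and 1.77-fold. Per coding length Nop56 exceeded Nop58 in 3 of 4 libraries only, by 0.10 on the log2 scale.

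Box H/ACA complexes guide the conversion of uridine to pseudouridine, and their 4 core genes spanned 2.90-fold per exon length, 2.67-fold per transcript length and 2.92-fold per coding length. Nhp2, an RNA-binding core protein (ENSMUSG00000001056.3, chromosome 11, 51619735 to 51623714, plus strand), was the highest, at 691, 668, 700.3 and 688 TPM. Dkc1 encodes dyskerin, the pseudouridine synthase, and is the only member on the X chromosome (ENSMUSG00000031403.14, 75095854 to 75109777, plus strand). It stood at 317, 313, 301 and 292 TPM. Nop10, a small core protein, stood at 279.9, 271, 272 and 310.5 TPM, highest in replicate 4, and Gar1, the fourth core protein, at 246, 236, 216 and 250 TPM, lowest in replicate 3. Nhp2 exceeded each of the other 3 in every library per exon length, by 2.25-fold over Dkc1, 2.42-fold over Nop10 and 2.90-fold over Gar1. Nop10 and Dkc1 overlapped, with a difference of -0.11 ± 0.13 on the log2(TPM + 1) scale (exact permutation p = 0.25). The order of that pair turned with the length: Nop10 has 195 coding bases in a transcript of 1109, and per coding length it stood at 535 ± 34.5 TPM against 273.5 ± 9.15 for Dkc1, while per transcript length it was the lower of the pair in 4 of 4 libraries.

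**Figure D2:**
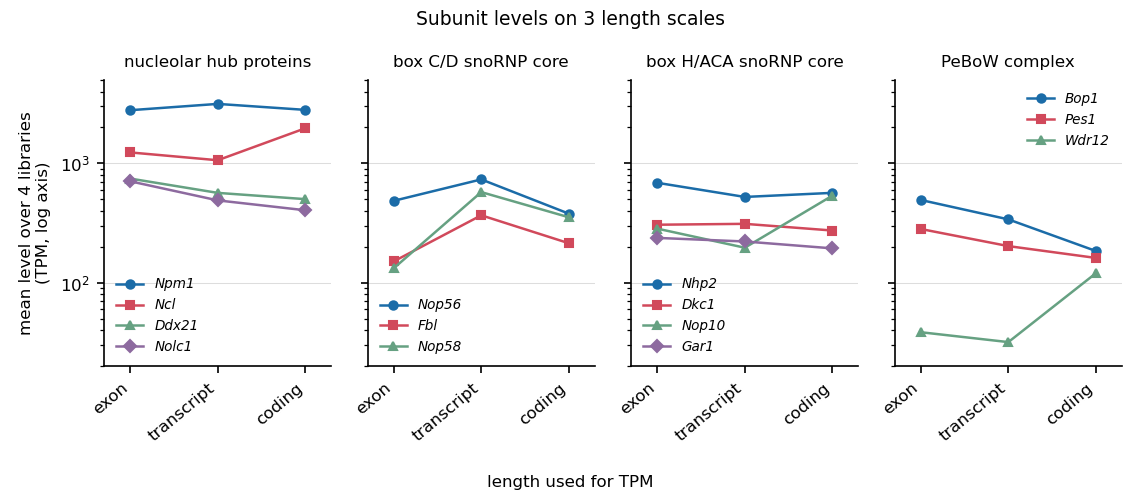
Mean level over the 4 libraries (TPM, log axis) of the hub proteins, the listed box C/D and box H/ACA core proteins and the PeBoW complex. Each was computed per deposited exon length, per principal transcript length and per coding length, with 1 line per gene. Lines that cross, such as Fbl and Nop58, change order with the length, and the PeBoW lines draw together from a 12.8-fold to a 1.54-fold span.

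The small subunit processome, the large particle in which 18S rRNA folds and is cut, was represented by 13 members with means per exon length from 84.1 TPM for Imp4 to 365 for Imp3 and a median of 213 TPM. Imp3 and Imp4 are partners that hold the U3 snoRNA on the precursor. Imp3 (ENSMUSG00000032288.9, chromosome 9, 56937475 to 56938398, plus strand) stood at 361, 379, 349.8 and 372 TPM. Imp4 (ENSMUSG00000026127.13, chromosome 1, 34439851 to 34449356, plus strand) stood at 83.1, 86.4, 84.4 and 82.6 TPM, below 100 in all 4. Imp4 was lower than Imp3 by -2.11 ± 0.05 on the log2(TPM + 1) scale in 4 of 4 libraries, and by -1.56 with transcript length. With coding length it was the higher of the pair, by 0.43 in 4 of 4 libraries.

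Utp4, Utp15, Heatr1, Wdr43 and Wdr75 belong to the subcomplex that binds the precursor first. Wdr43 was the highest of them per exon length, at 364, 339, 328 and 321 TPM, and lay below Utp4 per transcript length (234 against 273 TPM). Wdr75 stood at 138, 138, 133 and 129.6 TPM, below Wdr43 in each library on all 3 scales. Utp4 at 255 ± 8.96 TPM and Heatr1 at 252 ± 7.79 overlapped and differed by 0.02 ± 0.05 on the log2(TPM + 1) scale (exact permutation p = 0.625), while Utp15 stood lower, at 140.4 ± 8.46 TPM. Per coding length Utp15 lay above Heatr1 in 4 of 4 libraries. Heatr1, which has 6432 coding bases, was 0.73 below Utp4 on that scale.

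Rrp9, the protein that marks the U3 snoRNA complex, stood at 262 ± 16.6 TPM, Utp3 at 214 ± 17.4, Nop14 at 213 ± 10.4, and Utp20, one of the longest members with 8370 coding bases, at 131 ± 1.85 TPM. Utp20 varied least of the 44, with a coefficient of variation of 1.42%. Ddx10, a helicase that releases a snoRNA from the precursor, was the lowest member per coding length. It stood at 109, 102, 93.2 and 98.4 TPM per exon length, so that 2 libraries were above 100 and 2 below. The member that varied most, Utp18, is described with the libraries below.

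Late factors of the small subunit, which complete 18S rRNA and travel with the particle towards the cytoplasm, spanned 2.24-fold per exon length. Their 6 means ran from 123 TPM for Nob1 to 275 for Tsr1. Nob1 is the nuclease that makes the final cut of 18S rRNA, and stood at 118, 122, 129.9 and 122 TPM. Pno1, its partner, stood at 299, 273, 264 and 259.5 TPM, above every library's Nob1. Nob1 was lower than Pno1 by -1.15 on the log2(TPM + 1) scale, -0.23 with transcript length and -0.83 with coding length, in 4 of 4 libraries each. Tsr1, a GTPase-like assembly factor, stood at 291.5, 288, 260.2 and 261 TPM, replicates 1 and 2 above replicates 3 and 4. Rrp12, an export factor, was at 216 ± 10.7, Ltv1 at 172 ± 10.3 and Bysl at 156 ± 6.35 TPM. Bysl was lower than Ltv1 in 4 of 4 libraries, by -0.14 per exon and -0.15 per transcript length on the log2(TPM + 1) scale, and higher by 0.69 per coding length.

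Bop1, Pes1 and Wdr12 form the PeBoW complex, which matures 28S and 5.8S rRNA. Bop1 (ENSMUSG00000022557.10, chromosome 15, 76452996 to 76477269, minus strand) stood at 462, 524, 518 and 468 TPM. Pes1 (ENSMUSG00000020430.12, chromosome 11, 3963975 to 3980004, plus strand) stood at 271, 289, 282.5 and 284 TPM. Wdr12 (ENSMUSG00000026019.15, chromosome 1, 60069785 to 60098645, minus strand) stood at 38.6, 39.3, 38.2 and 37.4 TPM, the lowest member per exon and per transcript length. The 3 ranges were far apart per exon length. Bop1 exceeded Wdr12 by 12.8-fold per exon length and 10.7-fold per transcript length, and by 1.54-fold per coding length, on which Wdr12 stood at 119.7 ± 2.49 TPM, Pes1 at 161 and Bop1 at 184. The order held in 4 of 4 libraries on each scale. Of the 11955 exon bases listed for Wdr12, 1272 are coding.

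Large subunit factors outside PeBoW numbered 11, with means per exon length from 118 TPM for Rrp1b to 470.4 for Nop2. Nop2, a methyltransferase of 28S rRNA, stood at 428, 509, 478 and 467 TPM, lowest in replicate 1 and highest in replicate 2. The paralogs Rrp1 and Rrp1b both encode nucleolar proteins of the large subunit pathway. Rrp1 stood at 385, 436, 389 and 387 TPM and Rrp1b at 113, 119, 121 and 119.6 TPM, without overlap. Rrp1 was the higher by 3.38-fold, and by 3.59-fold and 2.14-fold on transcript and coding length. Gnl3 encodes nucleostemin, a GTP-binding protein of growing cells, and stood at 428.5, 426, 392 and 401 TPM. Its paralog Gnl2, a GTPase of large subunit maturation, stood at 124, 139, 128 and 129 TPM. The ratio was 3.17, and 1.97 and 2.19 on the other scales, so both paralog pairs kept their order on every scale and in every library.

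Rrs1, which helps to bring in 5S rRNA, stood at 290.2, 281, 247 and 273 TPM, and Ebna1bp2, known as EBP2, at 219, 243, 219 and 229 TPM. Rrs1 was higher in 4 of 4 libraries per exon length, but the pair was level per transcript length (a difference of 0.0025 on the log2 scale) and reversed per coding length, with Ebna1bp2 higher by 0.78. Nop16 at 259 ± 6.04, Mrto4, a relative of the ribosomal stalk protein, at 220.1 ± 6.06, the helicase gene Ddx18 at 210.4 ± 3.8 and Nip7 at 180.3 ± 4.66 TPM lay below Rrs1 and above Gnl2 in their means per exon length. Nip7 was the lowest of the 11 per transcript length, at 129 TPM, and the highest per coding length, at 345 TPM. Among the helicases, Ddx21 exceeded Ddx18 by 3.54-fold and Ddx18 exceeded Ddx10 by 2.09-fold per exon length, with the same order on the other scales in every library.

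Of the 30 pairs of partners and paralogs compared, 27 had the same sign in all 4 libraries per exon length, each with the smallest exact two-sided sign-flip permutation p of 0.125 (0.139 after Benjamini-Hochberg adjustment over the 30 pairs). No pair could pass 0.05 with 4 libraries. The other 3 were Nop10 against Dkc1, Utp4 against Heatr1 and Utp18 against Utp20. The mean sign changed in 4 pairs with transcript length and in 7 with coding length, and 22 pairs kept their sign on all 3 scales. Differences above 1 on the log2 scale numbered 17 per exon length, 12 per transcript length and 9 per coding length.

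**Figure D3:**
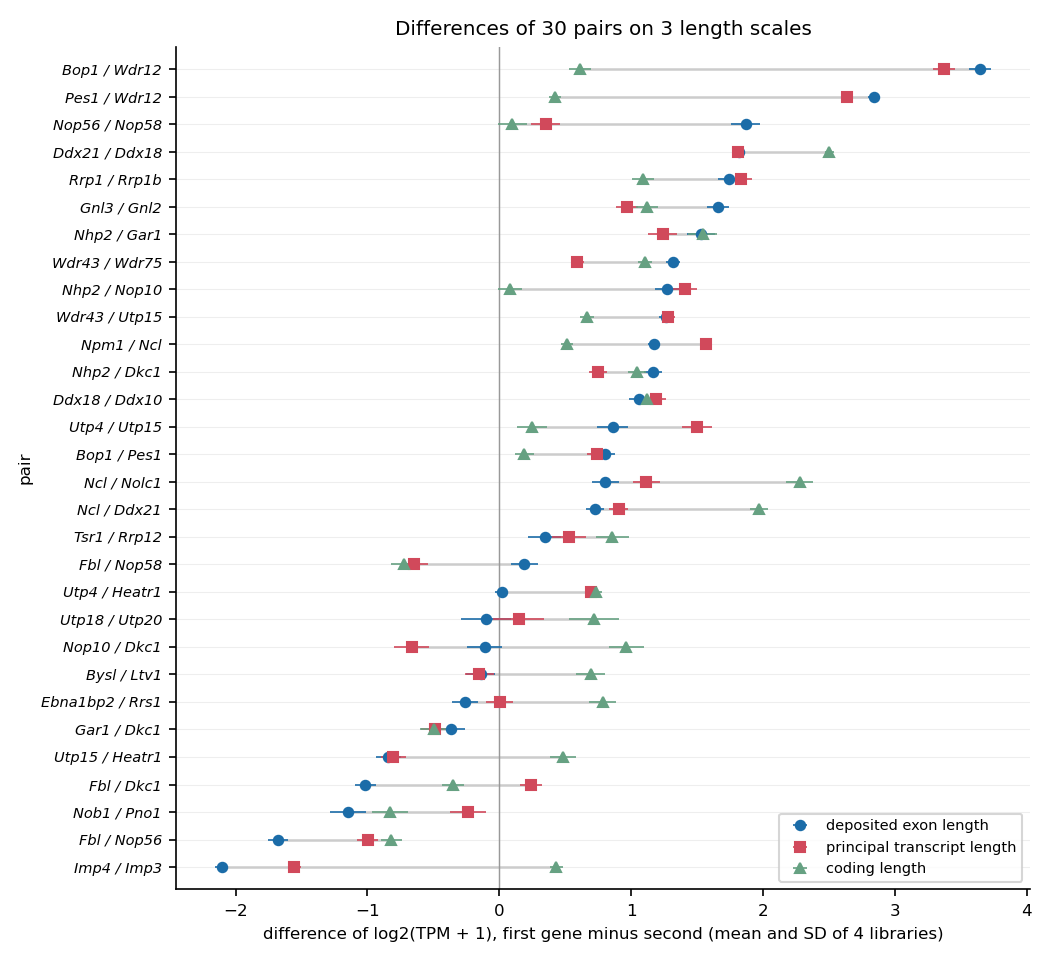
Difference of log2(TPM + 1) between the genes of 30 pairs, first minus second, as mean and SD over the 4 libraries, on the 3 length scales. Error bars are short beside the distance between scales for pairs such as Bop1 and Wdr12, and markers on either side of 0 are pairs whose order depends on the length.

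No member varied between the 4 libraries beyond the test's threshold. For each gene, edgeR fitted the same level to all 4 libraries with a trended dispersion, and its residual deviance was tested against chi-square (3 degrees of freedom), with Benjamini-Hochberg adjustment over the whole table. Of 12712 genes, 46 (0.362%) passed an adjusted p of 0.05, and 0 of the 44 members did. At an unadjusted p under 0.05 there was 1 member, Utp18, among 704 genes, and with DESeq2's dispersion trend the counts of members were the same, 0 and 1. Over all genes the number called was 862 with a common dispersion and 25 without replicate 2, and it was 0 for the members in both. The median residual deviance was 1.24 over the members, 1.98 over all genes tested and 1.69 over the 4853 tested genes within the members' range of levels. Median coefficients of variation were 4.84%, 7.53% and 5.17%.

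Utp18, a subunit of the processome (ENSMUSG00000054079.12, chromosome 11, 93859243 to 93885766, minus strand), stood at 145, 123, 112 and 109.7 TPM. Replicate 1 was above the other 3, and replicates 3 and 4 lay close together. Its deviance was 15.3 and its coefficient of variation 13.1%, the largest among the members, with an adjusted p of 0.209 in the edgeR test over all genes. With the common dispersion in place of the trend it had an unadjusted p above 0.05. Next came Utp3 with a deviance of 5.36 (231, 226, 200.1 and 197.5 TPM) and Gar1 with 4.43, and for both the edgeR adjusted p was 1. In Utp3 as in Utp18, replicates 1 and 2 were the higher libraries.

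That split recurred. Replicates 1 and 2 were the 2 highest libraries for 17 members (38.6%, against 21.3% of all genes tested), among them Ncl, Npm1, Nop58, Dkc1, Utp18 and Tsr1. Replicates 2 and 3 were the highest for 13 members (29.5%, against 20.9%), among them Nolc1, Ddx21, Nop56 and Bop1, and replicates 3 and 4 for Rrp1b alone (2.27%, against 16.5%). Replicate 2 was the highest library for 19 members (43.2%, against 24.3% of genes tested) and the lowest for 3 (6.82%, against 15.4%). The sizes were small: the median deviation of the members from their own mean was -0.01, 0.04, -0.02 and -0.03 on the log2 scale in the 4 libraries. Replicate 2 was also the most deeply sequenced library, and the part of depth was not tested. Base composition moved with the deviations. Over the 44 members, Spearman's rho of the deviation with the GC content of the principal transcript was -0.64 in replicate 1 and 0.27, 0.34 and 0.50 in replicates 2 to 4, from genes that share a library. Over 12692 tested genes with a GC value it was -0.35, 0.08, 0.19 and 0.20. With trends in GC content and length removed, 57 genes passed the edgeR test and again 0 members did. At an unadjusted p under 0.05 in that run there was 1 member. Utp18 has 42.7% GC, against a median of 48.1% for the members, and the part of base composition in its spread was not tested.

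**Figure D4:**
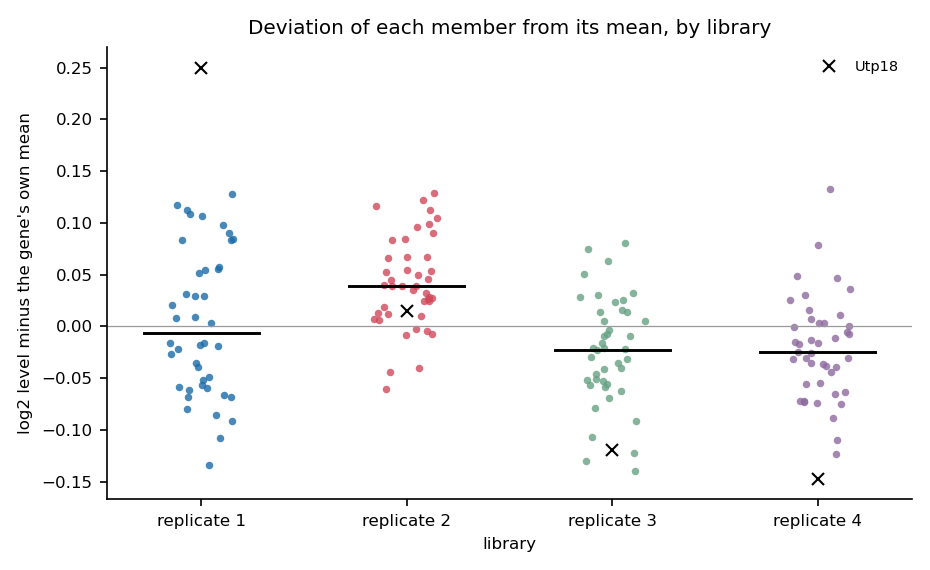
Deviation of each member's log2 level from its own mean, by library, with 1 point per gene, Utp18 drawn as a cross, and a bar at the median of the 44. Points lie within 0.15 of 0 except Utp18 in replicate 1 at 0.25, and the bar of replicate 2 is the highest.

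The rest of the pathway was present as well, and its levels and their order are given per exon length. Of 109 further ribosome biogenesis genes listed, 107 matched a symbol in the tables. All but 1, 106 of 107, reached 10 TPM in each library and 56 reached 100, their median was 108 TPM, and 0 of the 106 that were tested passed the edgeR test of variation. The 40 other small subunit factors had a median of 130.1 TPM, with Noc4l at 320.3 ± 24.0 and Lyar at 290.3 ± 27.8 TPM the highest and Dimt1, a methyltransferase of 18S rRNA, at 33.8 ± 2.80 the lowest. The 45 other large subunit factors had a median of 103 TPM, led by Mybbp1a at 952 ± 51.0 and Noc2l at 665 ± 27.5 TPM, with the helicase gene Ddx55 at 28.7 ± 3.13 the lowest. The 8 assembly factors of snoRNA complexes had a median of 70.3 TPM, from Ruvbl2, an ATPase, at 373.5 ± 10.5 to Shq1, the chaperone of dyskerin, at 23.8 ± 1.43. The 14 genes of the RNA exosome, which trims rRNA, had a median of 96.0 TPM, led by Exosc3 at 244.5 ± 27.1. Exosc6 had no fragment in any library, and 100% of its exon bases are shared on the strand with Aars, where fragments over several genes were not counted.

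Near-identical copies could take or lend fragments. At 95% identity over at least 300 bases, 9 members had 18 copies among GENCODE vM21 transcripts, with 4 for Npm1, 3 for Nop56, and 1 or 2 each for Ddx18, Mrto4, Pes1, Wdr12, Ddx21, Fbl and Imp3. Fragments that aligned to several places were not counted. The longest match was that of the Ddx18 copy Gm16433, with 1984 bases at 99.3% identity. Gm16433 had 122, 558, 109 and 56 fragments, beside 9401, 42034, 7276 and 7203 for Ddx18. The Fbl copy Gm5812 had 340, 1402, 263 and 245 fragments, beside 10980, 50856, 8779 and 9196 for Fbl. The Npm1 copy Gm14681 had 376, 1843, 367 and 378, beside 141893, 606190, 96438 and 101983 for Npm1. Levels of these 9 members are uncertain to the extent that fragments were lost to their copies, which the counts do not show.

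In the genome the members are scattered over 17 chromosomes, with 7 on chromosome 1 and 6 on chromosome 11. Utp4 (106893636 to 106923088), Nip7 (107056877 to 107060931) and Nob1 (107412486 to 107425051) lie close together on chromosome 8. A start facing that of another tested gene, at most 1000 bases away or overlapping by up to 300, was found for 13 members (29.5%), against 14.6% of tested protein-coding genes. Mrto4 and Emc1 start 11 bases apart, Utp4 and Chtf8 35, and Gnl3 and Pbrm1 49.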

How the data were processed

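Each library has a deposited table of counts per gene. They were made with featureCounts 1.4.6-p4 per the file headers, from read pairs with both ends aligned to exons of GENCODE vM13 at strand setting 2. Its options for fragments that align to several places or cover several genes were off. Alignments carry STAR in their names. Their settings are not given in the sources used here. The build is mm10 per the labels. Symbols came from a GENCODE vM21 table (50376 of 50600 identifiers matched). TPM was computed here from counts and the deposited exon lengths. The design foresaw no transcript or coding lengths; both, from the GENCODE vM21 principal transcript, were added after the data were seen.

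The test of variation ran in edgeR 4.0.16 under R 4.3.3 with limma 3.58.1, using filterByExpr with a minimum count of 10, TMM factors from 0.998 to 1.002, trended dispersion, an intercept-only fit, adjusted p under 0.05. Pair differences of log2(TPM + 1) were tested by exact sign-flip permutation, two-sided, over the 4 libraries. The test of variation was checked on simulated counts with known changes, and it missed most of the smallest ones. DESeq2 1.42.0 served as an alternative. Other steps used Python 3.11.15 with pandas 2.3.3, numpy 2.4.6 and matplotlib 3.10.9, and scipy 1.17.1. All 4 libraries were kept. Each of the 6 pairs differed by more than sampling noise (chi-square over its degrees of freedom 9.94 to 36.9). That measure grows with depth and cannot tell separate animals from separate preparations.

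The members, role groups, pathway lists, markers and pairs were chosen with earlier results of these data known. By rule, values in every library are given for the highest and lowest member of a role, paralogs and the 3 members of largest deviance. The same holds for the listed members of the box C/D core, the box H/ACA core and PeBoW. Pathway genes are named from the 4 highest and 2 lowest of a list. Per-library values of further members and the genes in the part on copies and neighbours were chosen after their values were seen.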

Additional observations from a re-analysis of the deposited data

Results flagged for a closer look

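Among 76 sets of 4 values examined (the levels of the 44 members, the 30 pair differences, the fragment totals and the members' share of fragments), 6 had a library far from the other 3 by Dixon's criterion. Chance flags about 1 set in 20. The fragment total of replicate 2 was 273136467, against 47558517 to 60102919 in the others. Rrp1 stood at 436.0 TPM in replicate 2 and between 385 and 389 in the others. The difference between Npm1 and Ncl on the log2(TPM + 1) scale was 1.11 in replicate 3, against 1.19 to 1.2. Nhp2 exceeded Gar1 by 1.69 in replicate 3, where Gar1 was lowest, against 1.46 to 1.5. Wdr43 exceeded Wdr75 by 1.4 in replicate 1, against 1.29 to 1.30, and Gnl3 exceeded Gnl2 by 1.78 in replicate 1, against 1.61 to 1.63.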

How the results depend on the processing

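No member passed the test of variation under any alternative run. Over all genes, 862 passed with the common dispersion against 46, from 25 (without replicate 2) to 40 (without replicate 1) when 1 library was left out, and 45 to 57 under the other settings. All 44 members stayed at 10 TPM or more in every library under each alternative. The number at 100 TPM or more fell to 24 with an effective length for an assumed fragment of 200 bases, was 33 to 41 otherwise, and was 41 with any 1 library left out. The median log2 change of a gene with that effective length was -1.07 over all genes tested and -1.06 over the members. In that setting, genes of up to 200 bases were given a length of 1 base before TPM was scaled to the library. The part of these genes in the change was not tested. As CPM the median log2 change over all genes tested was 0.17. The members' median was 119.3 TPM with effective length, 252.9 without mitochondrial genes and genes under 200 bases, 217.6 as CPM, 199.3 with transcript length and 180.1 with coding length, and 243.0 to 246.3 with 1 library left out. Leaving out 1 library moved no member's mean by more than 6.13% (Utp18, without replicate 1). The pairs of 1 sign in all libraries numbered 27 to 30 under every setting, and a pseudocount of 0.1 turned none.

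As CPM the mean difference turned for Npm1 against Ncl (-0.76), Fbl against Nop58 (-1.16), Nhp2 against Dkc1 (-0.68), Imp4 against Imp3 (1.08), Utp4 against Heatr1 (-0.90), Bysl against Ltv1 (0.59) and Ebna1bp2 against Rrs1 (0.53). With transcript length it turned for Fbl against Nop58 (-0.64), Fbl against Dkc1 (0.24), Utp18 against Utp20 (0.15) and Ebna1bp2 against Rrs1 (0.0025). With coding length it turned for Fbl against Nop58 (-0.72), Nop10 against Dkc1 (0.97), Imp4 against Imp3 (0.43), Utp15 against Heatr1 (0.48), Utp18 against Utp20 (0.72), Bysl against Ltv1 (0.69) and Ebna1bp2 against Rrs1 (0.78). With effective length it turned for Nop10 against Dkc1 (0.10), and without replicate 2 for Utp4 against Heatr1 (-0.0031, up to 0.033 without replicate 3), a pair that was not of 1 sign to begin with. No comparison between conditions, paired or not, was possible because all libraries belong to the same group.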
